A study of Mus musculus with 7 samples.

Results

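Genes of the cell division cycle, 41 in all, were followed in RNA of mouse aorta. They were listed by name, with earlier results of these data known, as 16 genes of DNA replication (*Mcm2* to *Gins2*) and 25 genes of mitosis and its regulation (*Mki67* to *Hmmr*). All 41 were found among the 47729 identifiers of the deposited table, and all 41 were among the 19188 genes that passed the filter on low counts. Aortic tissue labelled wild type (WT) gave 4 libraries and tissue labelled *Mmp19* knockout (KO) gave 3, and genotype is the single factor that the labels name. The labels give no strain, age, allele or segment of aorta, and they do not tie each library to a mouse of its own. The p-values therefore measure the spread between these 7 libraries. The protein made from *Mmp19* is a matrix metalloproteinase that cells secrete, and the series title places it in vascular smooth muscle cells and in protection against thoracic aortic aneurysm and dissection.

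Division genes are transcribed in waves. In late G1 and S phase, E2F factors turn on the genes that license origins, build the MCM helicase and supply nucleotides. In G2 and M phase, B-Myb (*Mybl2*) and FoxM1, working with the MuvB core, turn on cyclin B, the mitotic kinases and the kinesins of the spindle. In resting cells the DREAM complex holds many genes of both waves down. Smooth muscle of the healthy adult aorta divides rarely, and injury is known to bring smooth muscle cells, fibroblasts and leukocytes of the wall into division. Several replication genes, such as *Pcna*, also serve DNA repair and are read in cells that do not divide.

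The depth and the make-up of the tissue bear on all values below. Estimated counts summed to between 68151472 and 76926790 per library. *Mmp19* itself was at 26.2 ± 5.96 CPM in WT (CPM, a gene's count relative to the library's scaled total; SD, n = 4) and at 17.8 ± 6.96 CPM in KO (SD, n = 3), with KO replicate 1 inside the WT range (log2 fold change -0.56, edgeR adjusted p = 0.368). The library labelled KO replicate 1 thus did not stand below WT in the targeted gene. Defining genes of smooth muscle were present in every library, and their summed level over 10 genes was 19388 to 21462 CPM in WT and 3757, 14699 and 7708 CPM in KO replicates 1, 2 and 3. KO replicate 1 stood apart from the other libraries, and the log2 fold changes of the division genes and the counts at an unadjusted p are also given without it.

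Sequences at the start sites of these genes come first, since the motifs of the 2 waves lie there. RefSeq promoter windows (GRCm38.p6, 250 bases before to 50 bases after the transcription start) were at hand for 33 of the 41 genes, 13 of replication and 20 of mitosis. The others were *Mcm4*, *Ccne2*, *Gins2*, *Ccna2*, *Aurkb*, *Kif20a*, *Tpx2* and *Foxm1*. The windows were searched on both strands for 4 E2F words (TTTCCCGC, TTTCGCGC, TTTGCCGC and TTTGGCGC), for the word TTTGAA of the cell cycle genes homology region (CHR), where MuvB complexes are known to bind, and for the CCAAT box, known to be bound by NF-Y. A gene was counted if any of its windows held a match. An E2F word stood in 7 of 13 replication genes and in 1 of 20 mitotic genes, *Cdk1*, against 4.23% of the 12854 tested genes that have a window. The CHR word stood in 14 of 20 mitotic genes and in 1 of 13 replication genes, that of *Mcm2*, against 15% of the tested genes. A CCAAT box was found in 17 mitotic and 9 replication genes, against 42% of the tested genes. CHR and CCAAT stood together in 14 mitotic genes and 1 replication gene, against 7.27% of the tested genes. Matches of different motifs overlapped at 1 place among these windows. A match is a stretch of letters and not a shown binding site.

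**Figure D1:**
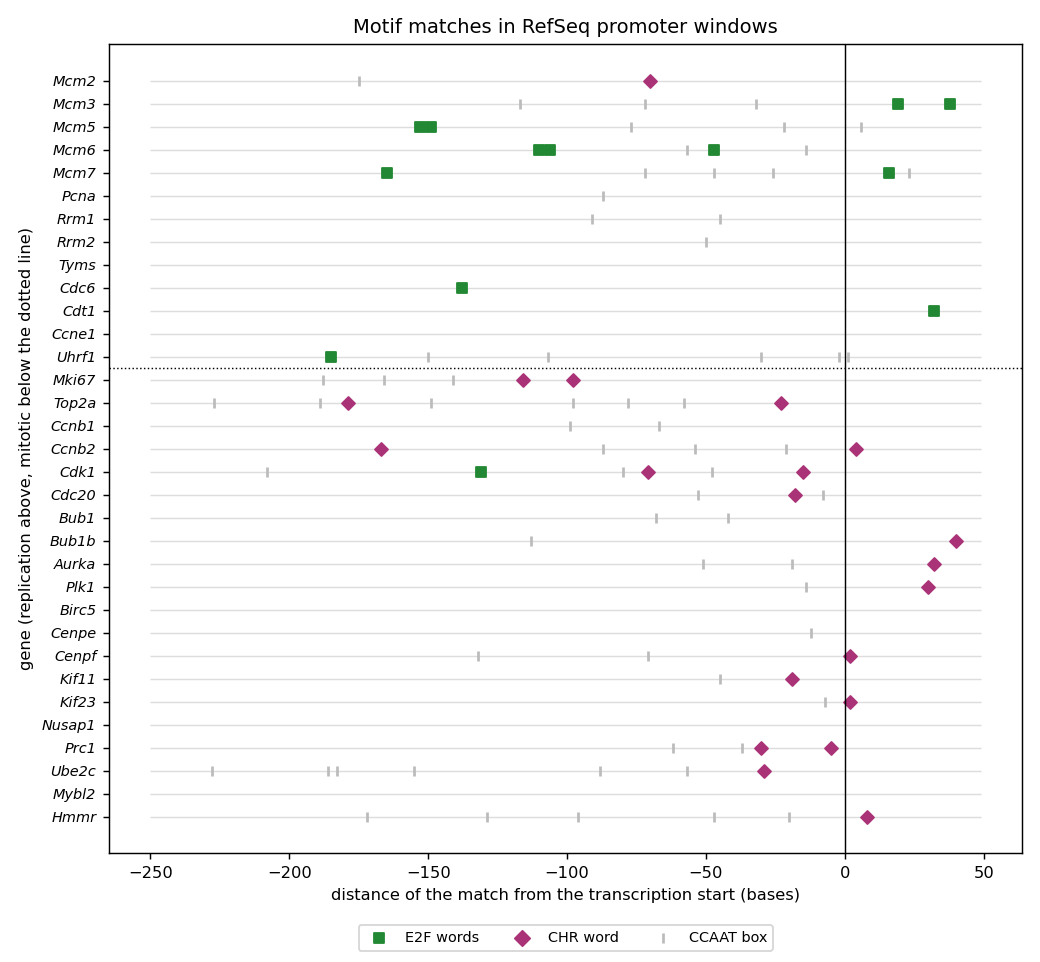
Matches of 3 motifs in the promoter windows of 33 cell division genes, with the distance of each match from the transcription start in bases on the horizontal axis and a row for each gene. Green squares (E2F words) stand in 7 replication genes and in *Cdk1*, and purple diamonds (CHR word) in 14 mitotic genes and in *Mcm2*; grey ticks are CCAAT boxes, and a gene with more than 1 window carries the matches of all of them.

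The 6 windows shown here each carry an E2F word or the CHR word, with matches of the 3 motifs in capitals and all other bases in lower case. They do not stand for every pattern. *Ccne1*, *Tyms*, *Birc5*, *Mybl2* and *Nusap1* held none of the 3 motifs. *Pcna*, *Rrm1*, *Rrm2*, *Bub1*, *Ccnb1* and *Cenpe* held a CCAAT box alone. *Mcm5*, *Cdc6* and *Mcm6* carry an E2F word, and *Mcm5* and *Mcm6* carry CCAAT boxes as well. *Mcm6* was the member with the smallest difference between KO and WT. *Mki67* and *Plk1* carry CHR and CCAAT, and *Cdk1* carries all 3 motifs. The windows lie at chr8:75109259-75109558 for *Mcm5*, chr1:128359656-128359955 for *Mcm6*, chr11:98907901-98908200 for *Cdc6*, chr10:69352863-69353162 for *Cdk1*, chr7:135716330-135716629 for *Mki67* and chr7:122159185-122159484 for *Plk1*, each written 5′ to 3′ on the strand of its gene.
Mcm5: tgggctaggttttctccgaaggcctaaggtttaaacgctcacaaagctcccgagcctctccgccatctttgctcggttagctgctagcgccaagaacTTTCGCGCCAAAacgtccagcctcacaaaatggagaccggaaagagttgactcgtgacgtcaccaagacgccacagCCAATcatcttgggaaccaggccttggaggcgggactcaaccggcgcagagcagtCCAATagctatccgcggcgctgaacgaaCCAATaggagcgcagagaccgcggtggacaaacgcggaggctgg
Mcm6: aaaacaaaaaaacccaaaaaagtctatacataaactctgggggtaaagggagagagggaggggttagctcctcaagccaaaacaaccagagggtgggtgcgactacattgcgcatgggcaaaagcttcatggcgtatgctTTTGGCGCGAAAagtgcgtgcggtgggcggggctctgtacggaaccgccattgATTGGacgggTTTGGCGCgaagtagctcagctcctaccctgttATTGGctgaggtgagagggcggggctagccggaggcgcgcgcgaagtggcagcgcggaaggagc
Cdc6: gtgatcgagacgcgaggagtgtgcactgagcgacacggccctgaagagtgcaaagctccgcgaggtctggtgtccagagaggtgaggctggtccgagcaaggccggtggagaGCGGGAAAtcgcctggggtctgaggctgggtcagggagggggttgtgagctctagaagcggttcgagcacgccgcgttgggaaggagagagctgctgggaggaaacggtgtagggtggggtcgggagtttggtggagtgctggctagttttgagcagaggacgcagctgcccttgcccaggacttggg
Cdk1: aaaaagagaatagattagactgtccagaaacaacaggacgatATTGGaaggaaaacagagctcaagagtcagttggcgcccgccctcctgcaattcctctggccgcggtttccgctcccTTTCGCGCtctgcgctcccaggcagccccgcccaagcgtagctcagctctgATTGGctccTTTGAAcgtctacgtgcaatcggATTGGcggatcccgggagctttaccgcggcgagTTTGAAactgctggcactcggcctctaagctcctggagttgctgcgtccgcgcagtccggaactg
Mki67: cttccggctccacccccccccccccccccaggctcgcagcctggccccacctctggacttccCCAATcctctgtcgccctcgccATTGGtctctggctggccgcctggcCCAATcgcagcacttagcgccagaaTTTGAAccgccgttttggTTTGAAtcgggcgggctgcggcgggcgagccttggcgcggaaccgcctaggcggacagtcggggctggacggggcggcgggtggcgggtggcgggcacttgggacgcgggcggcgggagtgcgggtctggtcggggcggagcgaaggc
Plk1: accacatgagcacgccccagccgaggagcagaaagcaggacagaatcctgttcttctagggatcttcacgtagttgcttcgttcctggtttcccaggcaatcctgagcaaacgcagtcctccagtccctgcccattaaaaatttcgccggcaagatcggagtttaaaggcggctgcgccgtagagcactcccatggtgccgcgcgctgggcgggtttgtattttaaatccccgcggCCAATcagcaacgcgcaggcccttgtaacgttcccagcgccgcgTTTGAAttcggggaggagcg

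In both groups of genes KO lay above WT on average, with KO replicate 1 farthest from WT. Each of the 41 genes had a positive log2 fold change, where 46.9% of all tested genes did, and for each of them KO replicate 1 was the highest of the 7 libraries (it was above every WT library for 31.3% of all tested genes). At an unadjusted p under 0.05 (edgeR quasi-likelihood), 33 of 41 genes were higher, 9 of replication and 24 of mitosis, against 9.92% of all tested genes, and 0 were lower, against 7.27%. None of the 41 passed the adjustment over all genes, with adjusted p-values of 0.174 to 0.913 (edgeR, Benjamini-Hochberg), in a fit that called 0.0156% of all genes higher and 0.00% lower. DESeq2 called 21 of them higher, 20 mitotic genes and *Tyms*, against 6.15% of all genes, and it called 0 of them lower, against 3.53%. Without KO replicate 1, 40 of 41 log2 fold changes were positive (46.8% of all genes), 12 genes were higher at an unadjusted p under 0.05 (5.95% of all genes) and 0 were lower (5.46%). In RNA of whole tissue, more dividing cells and more transcript in each dividing cell cannot be told apart.

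**Figure D2:**
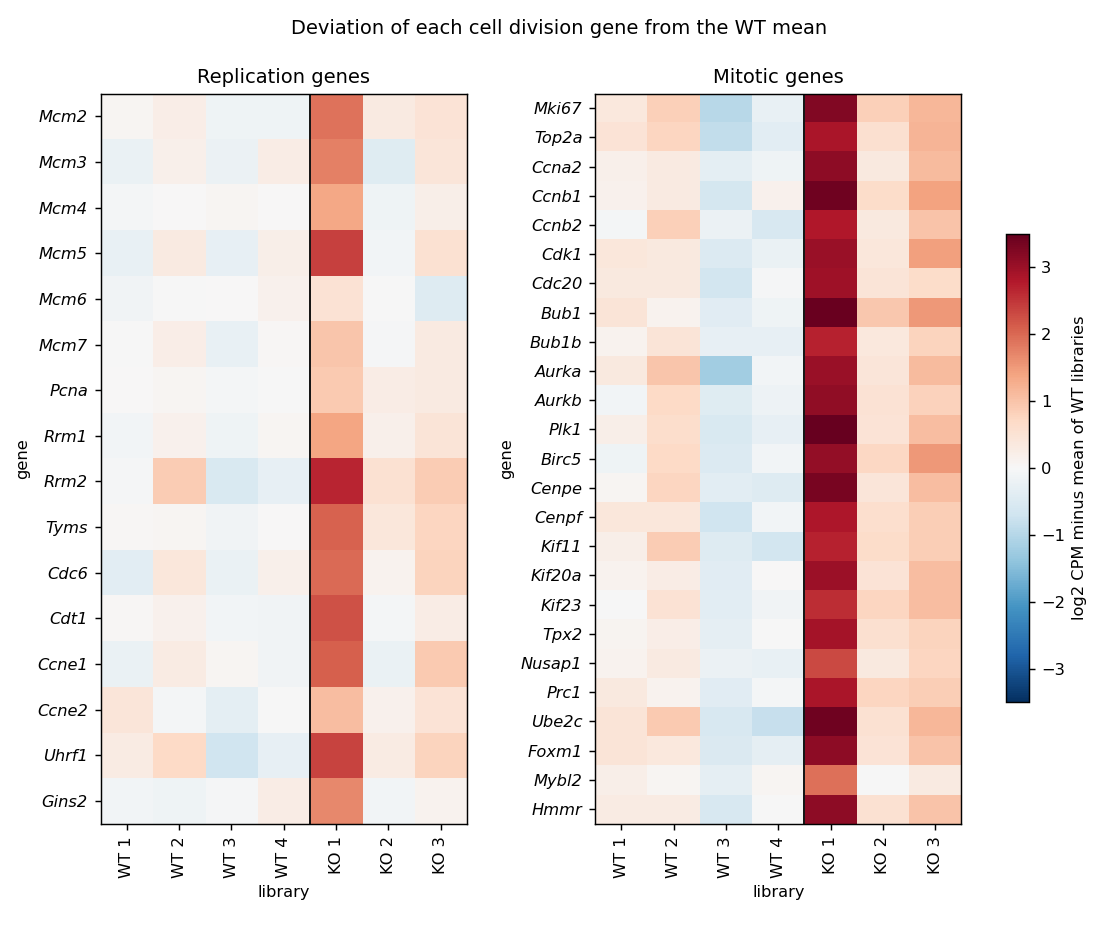
Colour shows log2 CPM of each gene (rows) in each library (columns) minus the mean of the 4 WT libraries, for 16 replication genes (left) and 25 mitotic genes (right). KO replicate 1 is the highest library in all 41 rows, KO replicate 3 is above every WT library in 37 and KO replicate 2 in 18.

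The KO libraries differed among themselves in nearly the same order for every gene. KO replicate 3 lay above every WT library for 37 genes, where 25.4% of all tested genes did so. KO replicate 2 lay above every WT library for 18 genes (19.7% of all tested genes), inside the WT range for 21 and below it for 2. The order from KO replicate 1 over 3 to 2 held in 40 of 41 genes, *Mcm6* being the exception. The groups did not overlap for 18 genes, 4 of replication and 14 of mitosis, against 8.17% of all tested genes with KO higher, and for 0 genes did KO lie wholly below WT, against 8.56%. Among the WT libraries, replicate 3 was the lowest for 20 of 25 mitotic genes and replicate 2 the highest for 19. Shares over all genes were not taken for these orders of the libraries. All genes were read in the same 7 libraries, so the genes are not independent repeats of an order.

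The helicase genes were highest in KO replicate 1 and nearer to WT in the other KO libraries. *Mcm2* to *Mcm7* encode the 6 subunits of the ring that unwinds DNA at the fork, and *Gins2* a subunit of the GINS complex that activates it. *Mcm2* (chr6:88883474-88898780, GRCm38) was at 9.23, 10.3, 7.95 and 8.01 CPM in WT replicates 1 to 4 and at 32.97, 10.9 and 12.3 CPM in KO replicates 1 to 3. It was the only helicase gene whose KO libraries all lay above WT, with the lowest KO library close to the highest WT library. The fold change was 1.08 on the log2 scale (SE 0.38, edgeR adjusted p = 0.227), and leaving out KO replicate 1 gave 0.38. *Mcm5* reached 36.7 CPM in KO replicate 1 and lay at 6.51 and 10.05 CPM in KO replicates 2 and 3, against 5.72 to 8.74 CPM in WT, with log2 fold changes of 1.33 over all libraries and 0.22 without KO replicate 1. *Mcm3*, *Mcm4* and *Mcm7* had log2 fold changes of 0.87, 0.61 and 0.46, which were 0.05, 0.03 and 0.14 without KO replicate 1. KO replicate 2 was below every WT library for *Mcm3* and *Mcm4*. Over the 7 genes the median log2 fold change was 0.80, and 0.05 without KO replicate 1. *Gins2* was at 3.11 ± 0.426 CPM in WT and 5.398 ± 3.94 CPM in KO (SD, n = 4 and 3), with log2 fold changes of 0.80 over all libraries and 0.00 without KO replicate 1. Of its exon bases 67.3% are shared with *Gse1* on the other strand, and the strand setting of the counts is not known.

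*Mcm6* stood apart from the rest of the ring. It read 44.3, 47.6, 48.5 and 53.4 CPM in the WT libraries and 68.4, 47.5 and 35.4 CPM in the KO libraries, so that KO replicate 1 was the highest and KO replicate 3 the lowest of all 7. The log2 fold change was 0.06 (SE 0.21, edgeR adjusted p = 0.913), the smallest of the 41, and leaving out KO replicate 1 turned it to -0.23. Limma-voom with quality weights gave -0.29. Per length of its exons, *Mcm6* was also the most abundant subunit in WT, at 10.4 ± 0.805 RPKM (CPM per kilobase of exon; SD, n = 4). *Mcm7* and *Mcm4* followed at 4.78 ± 0.644 and 4.55 ± 0.177 RPKM, whose spreads overlap, then *Mcm3* at 3.33 ± 0.595, *Mcm5* at 1.77 ± 0.381 and *Mcm2* at 1.27 ± 0.159 RPKM. The subunits stand in equal number in the helicase, while these transcript levels spanned 8.15-fold in WT and 4.02-fold in KO. Exon lengths here join all annotated isoforms, which lowers the RPKM of genes with long minor isoforms.

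The factors that load the helicase and open S phase were highest in KO replicate 1, and KO replicate 2 was inside the WT range for all 4. *Cdc6*, the ATPase that loads MCM on origins (chr11:98907801-98923940), was at 1.55, 2.65, 1.71 and 2.28 CPM in WT and at 7.997, 2.199 and 3.46 CPM in KO. KO replicate 2 fell between the WT libraries, and KO replicate 3 lay above them. Its log2 fold change was 1.15 (SE 0.46, edgeR adjusted p = 0.262) and 0.46 without KO replicate 1. *Cdt1*, its partner in loading, was at 11.5 CPM in KO replicate 1 and at 2.36 and 2.94 CPM in KO replicates 2 and 3, against 2.27 to 2.73 CPM in WT, with log2 fold changes of 1.19 over all libraries and 0.10 without KO replicate 1. The E cyclins, which drive entry into S phase, had log2 fold changes of 1.22 (*Ccne1*) and 0.60 (*Ccne2*), and 0.44 and 0.29 without KO replicate 1. *Uhrf1*, which brings the maintenance DNA methyltransferase to new strands, varied 2.69-fold among the WT libraries alone and had a log2 fold change of 1.33 (SE 0.55), and 0.44 without KO replicate 1.

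Of 4 genes of the clamp and of nucleotide supply, the groups did not overlap for 3, *Pcna*, *Tyms* and *Rrm1*, against 8.17% of all tested genes. *Pcna*, the sliding clamp of the polymerases (chr2:132249162-132253314), was at 42.4, 44.5, 40.7 and 41.9 CPM in WT and at 80.2, 51.02 and 52.9 CPM in KO. The WT libraries lay within 1.09-fold of each other, and every KO library was above them. The log2 fold change was 0.53 (SE 0.17, edgeR adjusted p = 0.201) and 0.29 without KO replicate 1 (adjusted p = 0.319). Per length *Pcna* was the most abundant of the 41 genes in WT, at 17.7 ± 0.667 RPKM (SD, n = 4), beyond the spread of *Mcm6*.

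*Tyms*, thymidylate synthase, which makes the thymidine nucleotide (chr5:30058202-30073617), read 5.17, 5.25, 4.59 and 5.06 CPM in WT and 21.2, 6.64 and 8.48 CPM in KO. Each KO library lay above each WT library. The log2 fold change of *Tyms*, 1.27 (SE 0.39), had the smallest adjusted p of the replication genes (edgeR adjusted p = 0.195; DESeq2 adjusted p = 0.0289) and was 0.59 without KO replicate 1. *Rrm1*, the large subunit of ribonucleotide reductase (chr7:102441695-102469771), was at 26.3, 31.1, 25.2 and 29.6 CPM in WT and 73.2, 31.3 and 38.5 CPM in KO, where KO replicate 2 was barely above WT replicate 2. *Rrm2*, the small subunit that is made in S phase (chr12:24708241-24714146), was at 4.89, 9.26, 3.44 and 4.09 CPM in WT and 32.3, 7.31 and 9.24 CPM in KO. Here WT replicate 2 was as high as KO replicate 3, so the groups overlapped. The reductase subunits had log2 fold changes of 0.77 (*Rrm1*, SE 0.28) and 1.59 (*Rrm2*, SE 0.58), the latter the largest of the 16 replication genes. They were 0.31 and 0.61 without KO replicate 1.

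The usual marks of proliferation, *Mki67* and *Top2a*, overlapped between the groups. *Mki67*, the Ki-67 antigen that coats mitotic chromosomes (chr7:135689784-135716361), was at 25.8, 35.3, 10.2 and 16.7 CPM in WT replicates 1 to 4 and at 188, 35.3 and 44.5 CPM in KO replicates 1 to 3. WT replicate 2 and KO replicate 2 had nearly the same level, and the WT libraries spanned 3.47-fold. *Top2a*, the topoisomerase that untangles sister chromatids (chr11:98992943-99024189), read 23.9, 29.02, 9.45 and 13.2 CPM in WT and 125, 25.2 and 39.3 CPM in KO, with KO replicate 2 again inside the WT range. Their log2 fold changes were 2.02 (SE 0.65, edgeR adjusted p = 0.207) and 1.74 (SE 0.60, adjusted p = 0.224), and 0.85 and 0.77 without KO replicate 1.

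The groups did not overlap for cyclin B1 and its kinase. *Ccnb1*, whose protein drives entry into mitosis (chr13:100778650-100786570), was at 3.46, 3.82, 2.01 and 3.44 CPM in WT and at 32.8, 4.798 and 8.23 CPM in KO. *Cdk1*, the kinase it activates (chr10:69335146-69352938), was at 4.48, 4.31, 2.45 and 2.89 CPM in WT and 27.99, 4.498 and 9.24 CPM in KO, where KO replicate 2 exceeded WT replicate 1 by little. For both genes every KO library was above every WT library. The log2 fold changes were 2.26 (SE 0.63) for *Ccnb1* and 1.98 (SE 0.58) for *Cdk1*, with edgeR adjusted p-values of 0.182 and 0.188. Without KO replicate 1 they were 1.03 and 0.95. *Ccna2*, cyclin A2, which acts in S phase and G2, had groups without overlap and a log2 fold change of 2.00 (SE 0.61), and *Ccnb2*, cyclin B2, had overlapping groups and a log2 fold change of 1.69 (SE 0.62). These were 0.74 and 0.61 without KO replicate 1.

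**Figure D3:**
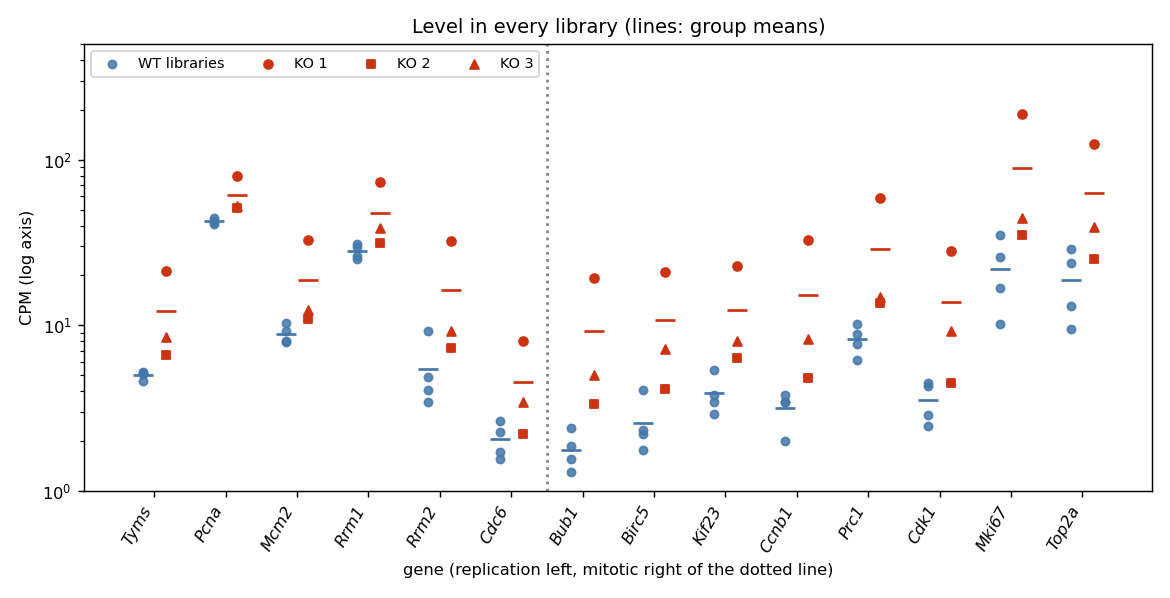
CPM on a log axis of 14 cell division genes in every library, with WT as blue dots, KO replicates 1, 2 and 3 as red circles, squares and triangles, and short lines at the group means. KO replicate 1 tops every gene, up to 188 CPM for *Mki67*, and KO replicate 2 falls inside the WT points for *Rrm2*, *Cdc6*, *Mki67* and *Top2a*.

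The largest log2 fold change of the set belonged to a gene of the spindle checkpoint. *Bub1*, a kinase that signals unattached kinetochores (chr2:127801122-127831865), was at 2.38, 1.87, 1.31 and 1.55 CPM in WT and at 19.2, 3.37 and 4.998 CPM in KO. All KO libraries lay above WT, and KO replicate 2 by more than the distance between the upper WT libraries. The log2 fold change of *Bub1*, 2.37 (SE 0.60, edgeR adjusted p = 0.174), was 1.23 without KO replicate 1 (adjusted p = 0.314). *Bub1b*, which encodes the checkpoint inhibitor BubR1, had a log2 fold change of 1.63 (SE 0.55), and 0.54 without KO replicate 1. *Cdc20*, the activator of the anaphase-promoting complex that the checkpoint restrains, was at 4.29 ± 1.23 CPM in WT and 14.9 ± 15.2 CPM in KO (SD, n = 4 and 3), with log2 fold changes of 1.79 over all libraries and 0.50 without KO replicate 1. *Ube2c*, a ubiquitin-conjugating enzyme of the same complex, had a log2 fold change of 2.09 (SE 0.75), and 0.70 without KO replicate 1. Of its exon bases, 22.8% are shared with *Tnnc2*, a troponin gene of skeletal muscle on the other strand.

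Of survivin and 3 mitotic kinases, the groups did not overlap for survivin. *Birc5*, survivin, the targeting subunit of the chromosomal passenger complex (chr11:117849251-117855743), was at 2.21, 4.04, 1.76 and 2.32 CPM in WT and 20.95, 4.11 and 7.16 CPM in KO. The groups did not overlap, although KO replicate 2 was next to WT replicate 2. Its log2 fold change was 2.05 (SE 0.57, edgeR adjusted p = 0.181), and 1.12 without KO replicate 1. *Plk1*, polo-like kinase 1, reached 30.3 CPM in KO replicate 1, 10.9-fold over the WT mean and the largest such ratio of the 41 genes, while KO replicate 2 at 3.73 CPM stayed inside the WT range of 1.82 to 4.05 CPM. Its log2 fold change was 2.25, and 0.75 without KO replicate 1. *Aurka* and *Aurkb*, the Aurora kinases of the spindle poles and of the passenger complex, had log2 fold changes of 1.78 (SE 0.71) and 1.93 (SE 0.66), and 0.62 and 0.60 without KO replicate 1. *Aurka* had the widest spread within WT, 4.64-fold, and DESeq2 gave no adjusted p for *Aurkb*. The kinetochore proteins *Cenpe*, a kinesin-like motor, and *Cenpf* had log2 fold changes of 2.09 and 1.74, and 0.70 and 0.66 without KO replicate 1.

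Of 7 genes of the spindle and of cytokinesis, the groups did not overlap for 6, against 8.17% of all tested genes. *Prc1*, which bundles the microtubules of the central spindle (chr7:80294450-80316259), was at 10.2, 8.81, 6.15 and 7.75 CPM in WT and 58.5, 13.6 and 14.8 CPM in KO. *Kif23*, a kinesin of the centralspindlin complex that works in the same place (chr9:61915905-61946774), was at 3.78, 5.39, 2.91 and 3.44 CPM in WT and 22.7, 6.38 and 8.07 CPM in KO. For both genes KO replicates 2 and 3 lay above WT, and KO replicate 1 lay far above them. The log2 fold changes were 1.81 (SE 0.52, edgeR adjusted p = 0.186) and 1.68 (SE 0.46, adjusted p = 0.181), and without KO replicate 1 they were 0.78 and 0.89. *Kif20a*, *Tpx2*, *Nusap1* and *Hmmr*, which serve cytokinesis or the building of the spindle, also had groups without overlap, with log2 fold changes of 1.91, 1.82, 1.39 and 2.00. Those were 0.78, 0.65, 0.54 and 0.75 without KO replicate 1. *Kif11*, the kinesin that pushes the poles apart, overlapped, since WT replicate 2 at 11.1 CPM exceeded KO replicates 2 and 3, and its log2 fold change was 1.58, and 0.61 without KO replicate 1. For *Kif20a* 29.3% of the exon bases are shared with *Cdc23* on the other strand, and for *Prc1* 11.1% with *Rccd1*. Of the members not yet marked in this way, the shares with any other gene were largest for *Ccne2* (17.4%), *Mcm7* (12.6%) and *Ccna2* (12.5%).

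Of the factors that drive the mitotic wave, *Foxm1* was at 4.64 ± 1.495 CPM in WT and 18.2 ± 18.5 CPM in KO (SD, n = 4 and 3), without overlap, and had a log2 fold change of 1.97 (SE 0.64), and 0.69 without KO replicate 1. *Mybl2*, which E2F itself turns on, had the smallest log2 fold change of the 25, 1.00 (SE 0.48; 0.14 without KO replicate 1), and for KO replicate 2 it fell between the WT libraries. The difference between these factors was not tested.

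The median distance between KO and WT was larger for mitotic genes than for replication genes, in each KO library. The median log2 fold change was 1.91 over the 25 mitotic genes (range 1.00 to 2.37) and 0.97 over the 16 replication genes (range 0.06 to 1.59), against -0.03 over all tested genes. None of the 16 replication genes reached the median of the mitotic genes, and 22 of 25 mitotic genes exceeded the highest replication gene. Without KO replicate 1 the medians were 0.70 and 0.29, against -0.02 over all genes tested there, and 20 of 25 mitotic genes exceeded the highest replication gene. The difference of the medians was 0.94 with all libraries and 0.41 without KO replicate 1. It is a description of these lists and was given no test.

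**Figure D4:**
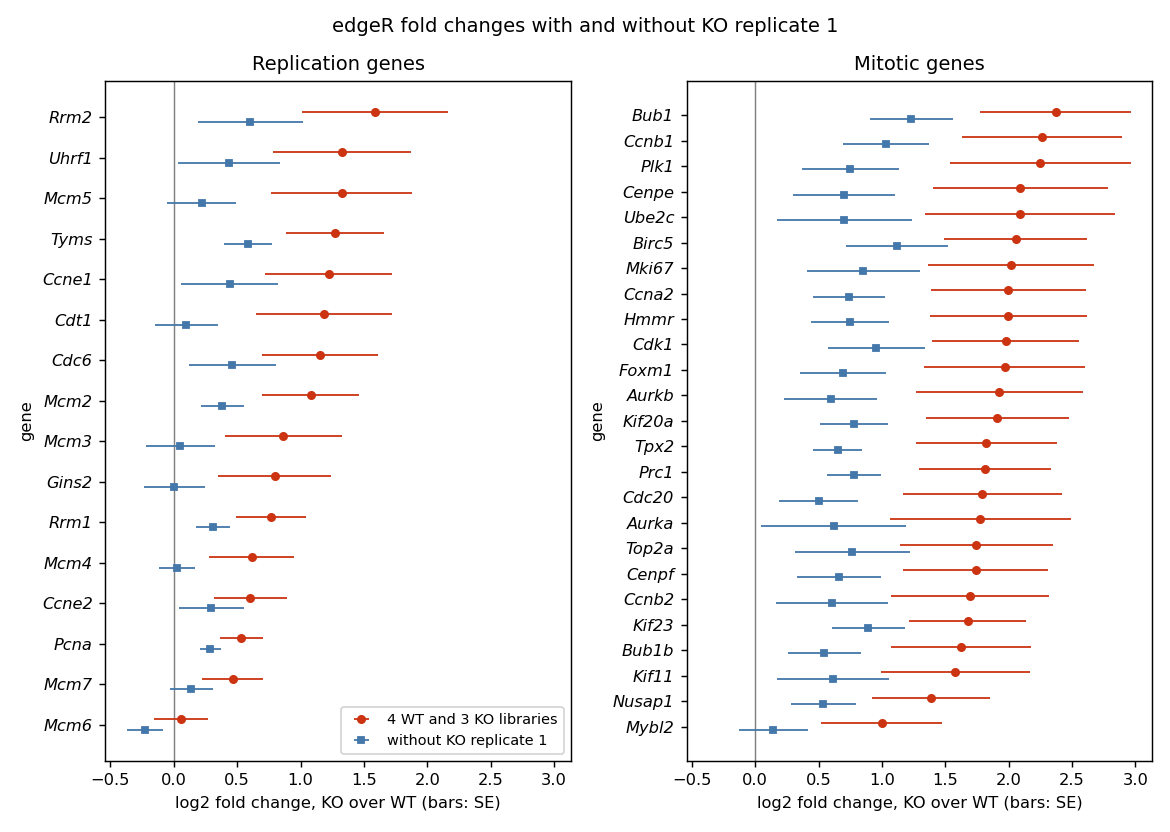
Log2 fold change of KO over WT on the horizontal axis, with bars of 1 standard error, for each replication gene (left) and mitotic gene (right), from all 7 libraries (red circles) and without KO replicate 1 (blue squares). Leaving out KO replicate 1 moves the medians from 0.97 to 0.29 and from 1.91 to 0.70, and 40 of 41 genes stay above 0.

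The order of the medians held in each KO library, while the lists overlapped more in KO replicates 2 and 3. By deviation from the WT mean, 22, 10 and 16 of 25 mitotic genes exceeded the highest replication gene in KO replicates 1, 2 and 3. In KO replicate 2, 1 replication gene lay above the mitotic median. The median deviation from the WT mean was 1.84, 0.06 and 0.46 for replication genes and 3.02, 0.51 and 1.07 for mitotic genes in KO replicates 1, 2 and 3 (log2 CPM). In WT replicates 1 to 4 it was -0.06, 0.17, -0.15 and 0.01 for replication and 0.20, 0.40, -0.44 and -0.16 for mitosis. KO replicate 2 was thus within the WT range for replication genes and little above it for mitotic genes. The summed CPM of mitotic genes over that of replication genes was 0.745, 0.797, 0.437 and 0.493 in WT and 1.86, 0.838 and 1.02 in KO. Every KO library had the higher ratio, KO replicate 2 by a narrow margin over WT replicate 2. These sums are weighted to abundant genes, with WT means of 48.4 CPM for *Mcm6*, 42.4 for *Pcna*, 22.0 for *Mki67* and 18.9 for *Top2a*. Within WT the mitotic genes also spread more, since the highest library exceeded the lowest by 1.93-fold in the median of the 25 genes and by 1.37-fold in that of the 16 replication genes.

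**Figure D5:**
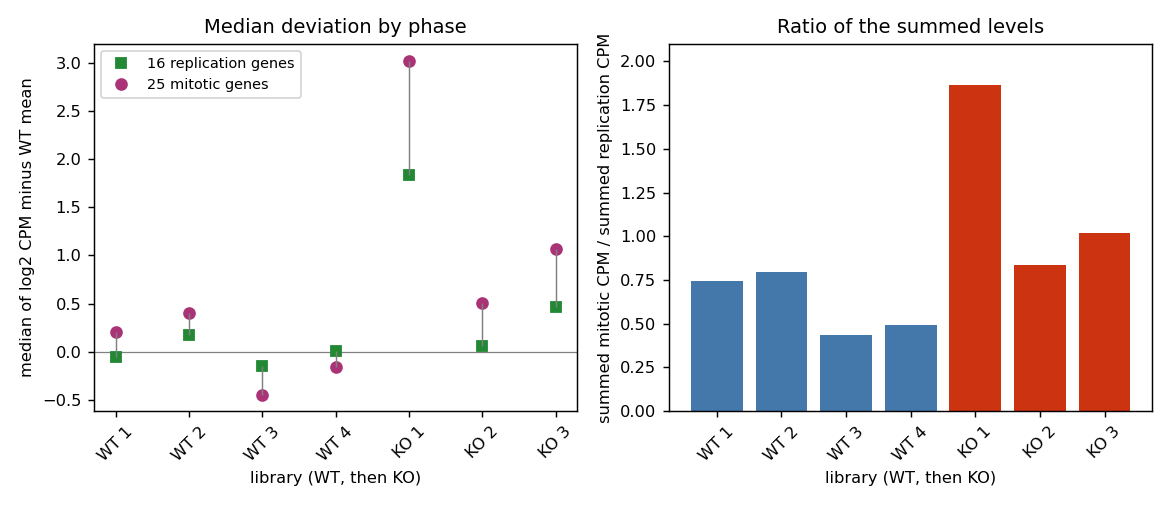
Left, the median over 16 replication genes (green squares) and 25 mitotic genes (purple circles) of log2 CPM minus the WT mean in each library; right, the summed CPM of the mitotic genes divided by that of the replication genes, WT in blue and KO in red. In all 3 KO libraries the mitotic median lies above the replication median, and the ratio runs from 0.437 to 0.797 in WT and from 0.838 to 1.86 in KO.

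Other genes of both phases were also mostly higher in KO on average. Of 38 further genes of replication and S phase, all 38 lay above 0 in log2 fold change (median 0.77), and 13 were higher at an unadjusted p under 0.05 (edgeR), against 9.92% of all tested genes, while 0 passed the adjustment. *Hells*, a chromatin remodeller of dividing cells, was at 3.43, 3.65, 3.38 and 3.64 CPM in WT and 18.1, 7.01 and 6.02 CPM in KO, and its groups did not overlap. Its log2 fold change was 1.56 (SE 0.39), and 0.88 without KO replicate 1. *Dbf4*, the activator of the Cdc7 kinase that fires origins, had a log2 fold change of 1.92 (SE 0.50), and *Mcm10*, which helps to start the fork, 1.78 (SE 0.50). They were 1.05 and 0.87 without KO replicate 1. Of 50 further mitotic genes 48 were positive, with a median of 1.63, and 40 were higher at an unadjusted p under 0.05, against the same 9.92%, with 0 past the adjustment. *Kif2c*, a kinesin that takes microtubules apart at kinetochores, had the largest log2 fold change of the 4 genes with the smallest p, 2.71 (SE 0.68), before *Dlgap5*, a protein of the spindle, at 2.24, *Nuf2*, of the kinetochore, at 2.23 and the condensin subunit *Smc2* at 1.35. In that order they were 1.58, 1.21, 1.15 and 0.72 without KO replicate 1. Without KO replicate 1 the medians of these lists were 0.25 and 0.62, and 4 of 38 and 10 of 50 genes were higher at an unadjusted p under 0.05, against 5.95% of all genes. The E2F words stood in 12 of the 30 genes of the first list that have a window and in 4 of 43 of the second, and the CHR word in 9 and 29.

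The mitotic genes with a negative log2 fold change were *Anln* and *Pttg1*, named here after their values were seen. *Anln* encodes anillin, a scaffold of the cleavage furrow, and was at 96.1, 78.4, 81.6 and 86.9 CPM in WT and 87.1, 95.7 and 53.5 CPM in KO. KO replicate 1 lay inside the WT range, and KO replicate 3 was the lowest library. *Pttg1*, securin, was at 18.4, 27.00, 22.5 and 21.7 CPM in WT and 11.6, 21.8 and 18.3 CPM in KO, where KO replicate 1 was the lowest of the 7. Neither passed the test (edgeR, adjusted p = 0.788 and 0.454).

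Genes that act before S phase had a small median difference as a list, and they went both ways. Of 10 G1 cyclins, kinases and factors, 6 lay above 0 in log2 fold change and 4 below, where 46.9% of all tested genes lay above. Their median was 0.11 and their range -0.77 to 1.16. Without KO replicate 1, 0 were higher at an unadjusted p under 0.05 (edgeR), against 5.95% of all genes. With all libraries 2 were higher at that p, against 9.92% of all tested genes. These were *Myc*, at 8.49 ± 1.65 CPM in WT and 19.01 ± 11.1 CPM in KO (SD, n = 4 and 3), with KO replicate 2 between the WT libraries, and *E2f3*. Their log2 fold changes were 1.16 (SE 0.41) and 0.44 (SE 0.18), and 0.68 and 0.25 without KO replicate 1. *Cdk4* and *Ccnd1*, the kinase and a cyclin of G1, had 0.37 (SE 0.21) and 0.36 (SE 0.22), and 0.06 and 0.22 without KO replicate 1. Among 22 inhibitors and genes of the resting state, 6 were higher and 1 was lower at an unadjusted p under 0.05, against 9.92% and 7.27% of all tested genes, with a median of 0.25. Leaving out KO replicate 1 gave 2 higher and 0 lower, against 5.95% and 5.46% of all genes, and a median of 0.14. For 8 of the 22 every KO library lay above WT, against 8.17% of all tested genes, and for 0 below it, against 8.56%. *Ccng1*, cyclin G1, a target of p53, was at 125, 129, 111 and 129 CPM in WT and 168, 199 and 189 CPM in KO. The groups were apart, and KO replicate 1 was here the lowest of the KO libraries. Its log2 fold change was 0.59 (SE 0.11, edgeR adjusted p = 0.165), and 0.65 without KO replicate 1. *Btg1*, an antiproliferative gene, and *Cdkn2b*, the inhibitor p15 of Cdk4 and Cdk6, had log2 fold changes of 0.62 (SE 0.18) and 0.76 (SE 0.28), and *Gas1*, a growth arrest gene, -0.32 (SE 0.13). In that order they were 0.40, 0.66 and -0.28 without KO replicate 1.

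Summed markers of macrophages and of neutrophils had the same order of KO libraries as the division genes, and those of T and NK cells and of B cells did not. The summed level of 15 macrophage and monocyte genes was 403 to 662 CPM in WT and 4639, 845 and 1493 CPM in KO replicates 1, 2 and 3. Of these genes 14 had a positive log2 fold change, with and without KO replicate 1, against 46.9% and 46.8% of all genes. At an unadjusted p under 0.05 (edgeR) 14 were higher in both fits, against 9.92% and 5.95%. None of these markers was at 0 in a library, and the most abundant, *Lyz2* and *Mrc1*, reached 1879 and 419.7 CPM in KO replicate 1. For 12 neutrophil genes the sums were at most 29.4 CPM in WT and 483, 18.9 and 67.0 CPM in KO, with *Camp*, *Mmp8*, *Mpo* and *Retnlg* at 0 in at least 1 WT library. The neutrophil genes did not all move together: 8 log2 fold changes were positive and 4 negative, the lowest at -2.38. Leaving out KO replicate 1 gave 6 positive and 6 negative, against 46.8% of all genes positive. Both sums ranked the KO libraries as the mitotic sum did, with replicate 1 over 3 over 2. Among the WT libraries the neutrophil sum also had the order of the mitotic sum (replicates 2, 1, 4 and 3 from high to low), while the macrophage sum was highest in WT replicate 4. The smooth muscle sum given above had the reverse order in KO, lowest in replicate 1 and highest in replicate 2. The part of these cell types in the levels of the division genes was not tested. WT replicate 2 also held the highest sum of 9 T and NK cell genes, 105 CPM against 10.2 to 14.3 CPM in the other WT libraries and 19.7, 35.4 and 28.1 CPM in KO replicates 1, 2 and 3, and its part was not tested either.

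Sums over other cell type lists had other orders of the KO libraries. The summed level of 9 endothelial genes was 1708 to 1842 CPM in WT and 1152, 1768 and 1722 CPM in KO replicates 1, 2 and 3, and that of 8 fibroblast genes 9929 to 18204 CPM in WT and 20146, 13855 and 12750 CPM in KO. Heart muscle genes summed to 89.3 to 156 CPM in WT and to 772, 1333 and 34.5 CPM in KO. Erythroid genes summed to 638 to 2723 CPM in WT and to 790, 2304 and 7185 CPM in KO. Sums of 8 B and plasma cell genes, of which 7 were tested, were at most 7.43 CPM in WT and 10.7, 4.35 and 13.2 CPM in KO, and those of 7 adipocyte genes were 2460 to 4734 CPM in WT and 1972 to 5323 CPM in KO.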

How the data were processed

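Estimated counts per gene for 7 aorta libraries were deposited by the authors as 1 table, with Ensembl mouse identifiers. Per the labels' protocols, total RNA went into a SMARTER kit for mRNA libraries. The submitters' processing notes name the builds GRCm38 and mm10. Not given in the sources used here: aligner, counting tool, annotation and strand setting. The values are whole numbers in which multiples of 4 between 8 and 40 occurred 1.25 to 1.38 times as often as the numbers beside them, so a count need not be 1 read. Of the identifiers 47224 matched a symbol. The 505 others held 0.0490% to 0.0711% of a library's counts and stayed in the fit, and 120 sharing a symbol were kept off the lists.

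KO was compared with WT in edgeR 4.0.16 (R 4.3.3) with filterByExpr, TMM, glmQLFit and glmQLFTest, without covariates, and p-values were adjusted by Benjamini-Hochberg over 19188 genes at 0.05. CPM carry the TMM factors, and deviations use log2 CPM with a prior count of 2. The fit was also run on simulated counts in which no library stood apart within its group. That run therefore does not bear on a library such as KO replicate 1. Exon lengths and gene positions come from GENCODE M21 (GRCm38), and promoter windows from RefSeq (GRCm38.p6). No pair of libraries was alike within sampling noise (the lowest mean chi-square per gene was 20.9, from counts divided by 4). That most alike pair was WT replicate 4 and KO replicate 2, across the groups. The lowest value within WT was 23.1 (replicates 2 and 4), and within KO it was 48.9 (replicates 2 and 3).

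The members and lists were chosen with earlier results of these data known, and the promoter search, motifs and printed windows after the values had been seen. Values in every library are given for the 6 genes with the smallest p in each phase group and for *Pcna*, *Mcm2*, *Mki67*, *Top2a*, *Cdk1* and *Ccnb1*. Of the 4 other cell cycle lists, the 4 genes with the smallest p are named, except 1 that is not reported here. *Mcm6*, *Anln* and *Pttg1*, and single-library values of other members, fall outside this rule and were chosen after their values were seen. The 15 alternatives were DESeq2's size factors, upper-quartile scaling, no filter, 50 counts in 3 libraries, DESeq2 1.42.0, limma-voom with quality weights (limma 3.58.1), counts divided by 4, a fit blocked on the replicate number, and 7 fits without 1 library each.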

Additional observations from a re-analysis of the deposited data

Results flagged for a closer look

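In 2 of 75 sets of 4 WT values that were screened, 1 library lay far from the other 3 by Dixon's criterion, with gaps of 0.964 and 0.956 of the range. Chance gives about 5% of such sets. The summed level of the 10 G1 cyclins, kinases and factors was 572 CPM in WT replicate 1 and 489 to 492 CPM in the other WT libraries. The summed level of the 9 T and NK cell genes was 105 CPM in WT replicate 2 and at most 14.3 CPM in the other WT libraries, and the most abundant of these genes there, *Cd8a* and *Cd4*, read 52.7 and 25.01 CPM. None of the 41 division genes was set apart in this way.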

How the results depend on the processing

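All 41 genes kept a positive log2 fold change under every alternative but 2, without KO replicate 1 and with limma-voom, where *Mcm6* alone was negative. The count of members at an unadjusted p under 0.05 was 33, where 9.92% of all tested genes were higher. With 1 library left out it ran from 12 without KO replicate 1, against 5.95% of all genes, to 40 without KO replicate 2. It was 21 without WT replicate 3 and 19 without WT replicate 4. Shares over all genes at that p were not taken for the other alternatives. Their counts, with that of the block given below, therefore stand without a background. Over all genes, 0 members were called except 21 by DESeq2 and 6 (*Ccna2*, *Ccnb1*, *Cdk1*, *Bub1*, *Birc5* and *Kif20a*) without KO replicate 2. The 3 genes called higher became 0 without a filter and with the block, 7 with 50 counts in 3 libraries, limma-voom or counts divided by 4, 1020 with DESeq2, and 0 to 667 when 1 library was left out. The 0 called lower became 586 with DESeq2 and 0 to 362 when 1 library was left out, and 1395 were lower at an unadjusted p under 0.05. Leaving out 1 library, the replication median ran from 0.291 to 1.36, the mitotic median from 0.702 to 2.37 and their difference from 0.412 to 1.05. With all libraries kept, the replication and mitotic medians were 0.445 and 1.13 with limma-voom, and 0.725 and 1.46 with the block. Among the values of the 30 genes named by rule (*Mcm6* is not one of them), 420 kept their side of the threshold and 30 passed it newly (DESeq2 and without KO replicate 2), and none changed sign. Where a value moved, the cause was not tested. The labels do not say whether equal replicate numbers mark a pairing. Deviations of WT and KO libraries with the same number correlated across genes at 0.05, 0.07 and 0.34. WT replicates 2 and 3 correlated best with the KO library of their own number, and WT replicate 1 with KO replicate 2 (0.15). These values go both ways and cannot decide on a pairing. With the number as a block, 10 members had an unadjusted p under 0.05.

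These counts are estimates whose depth in reads is unknown, so no interval for counting error is given. The number of libraries limits the precision.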
